A study of Arabidopsis thaliana with 39 samples.

Results

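The comparison described here set the RNA of *morchex* against that of wild type (WT) 48 h after a heat treatment. It rests on 5 of the 39 samples of the series: 2 *morchex* libraries, which carry the replicate numbers 2 and 3, and 3 WT libraries. They were chosen by their labels alone. *morchex* is a hextuple mutant of *Arabidopsis thaliana* in the Columbia-0 (Col-0) background that carries the alleles *morc1-2*, *morc2-1*, *morc4-1*, *morc5-1*, *morc6-3* and *morc7-1*, so 6 MORC genes are disrupted at once. WT plants are Col-0 with all MORC genes intact. All plants were grown at 22 °C with 16 h of light, and 5- to 6-week-old plants were sampled before heat (T0), after 0.5 h at 37 °C (T30), or after the same heat followed by 48 h of recovery at the normal temperature (T48). The labels call the tissue floral, and the methods call it flower buds. Poly(A) RNA was sequenced from 3 libraries each of WT T0, *morchex* T0, WT T30 and WT T48, and from 2 each of *morchex* T30 and *morchex* T48. No unheated plants of the T48 sampling day are among the samples, so the heat and the 48 h that passed cannot be told apart, and nothing in the labels says that replicates came from separate plants, so p-values measure the spread between these libraries, which may be technical.

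MORC (Microrchidia) proteins are GHKL-type ATPases that bind and compact DNA. In Arabidopsis they keep transposons and some methylated genes silent, act alongside RNA-directed DNA methylation (RdDM), and also occupy unmethylated promoters next to active genes. Plants that survive a heat episode return their transcriptome towards the earlier state over the following days, while growth, cell wall synthesis, surface lipids and defence are adjusted.

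The T48 libraries held 9455267 to 11731207 expected counts in WT and 24374647 to 25054384 in *morchex*, so depth differed between the groups. A WT T48 library, replicate 3, had 0.647% of its counts on plastid genes against 0.116 to 0.174% in the other 4, and WT T48 replicate 2 had a mean level of the 17 salicylic acid immunity genes 2.84 above WT T0 (log2(CPM + 0.5), CPM being depth-scaled counts) against 3.95 and 3.91 in replicates 1 and 3. The labelled tissue was checked against its markers. In all 16 heat libraries, 6 of 12 floral homeotic and meristem identity genes (AP1, AP3, PI, SEP2, LFY and CAL), 19 of 22 tapetum and pollen wall genes, 7 of 8 shoot meristem genes, 6 of 10 carpel, 9 of 14 late pollen, 7 of 9 seed and 4 of 4 nectary genes stayed under 1 TPM (RSEM's transcript abundance, scaled to the same sum in each library). Most of the listed markers were thus under 1 TPM, so as a set they did not bear out the label of flower buds. The other members reached 1 TPM in at least 1 library, and which tissue was sampled was not tested. The 12 floral homeotic and meristem identity genes summed to 50.5 to 61.7 TPM in WT T48 and 44.15 to 56.0 TPM in *morchex* T48. The 23 photosynthesis genes on the list summed to 167300 to 193180 TPM over the T0 libraries of both genotypes, 100630 to 109000 TPM in WT T48 and 82512 to 90969 TPM in *morchex* T48, so photosynthesis transcripts were plentiful and lower in both groups at T48. In RNA from whole tissue, fewer cells of a type and less RNA per cell cannot be told apart.

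Sequences that the results return to are given first. *SDC* (AT2G17690), an F-box gene whose promoter repeats are methylated and silent in WT, is shown because it was among the genes farthest apart between the genotypes at T48. Its 250 bases before the start site, chr2:7681912-7682161 on the forward strand, hold a 21-base stretch 4 times, 32 bases apart, printed in capitals.
SDC: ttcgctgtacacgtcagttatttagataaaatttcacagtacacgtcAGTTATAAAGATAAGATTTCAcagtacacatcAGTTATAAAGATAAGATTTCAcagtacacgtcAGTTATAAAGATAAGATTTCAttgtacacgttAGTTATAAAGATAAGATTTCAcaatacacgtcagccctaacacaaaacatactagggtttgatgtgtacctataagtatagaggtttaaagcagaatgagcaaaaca
*PR5* (AT1G75040), which encodes a thaumatin-like defence protein, and *FRK1* (AT2G19190), a receptor-like kinase gene induced by bacterial flagellin, are shown because they were higher in *morchex* at T48 and carry TTGACT (on either strand, in capitals), the core of the W-box that WRKY factors bind. The windows are the 250 bases before each start, chr1:28177420-28177669 on the forward strand for PR5 and chr2:8329945-8330194 on the reverse strand for FRK1.
PR5: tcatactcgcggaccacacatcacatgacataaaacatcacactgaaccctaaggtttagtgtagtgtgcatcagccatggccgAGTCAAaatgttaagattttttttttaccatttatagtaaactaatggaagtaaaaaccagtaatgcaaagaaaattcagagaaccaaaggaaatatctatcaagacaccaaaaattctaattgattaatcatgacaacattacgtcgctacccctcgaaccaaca
FRK1: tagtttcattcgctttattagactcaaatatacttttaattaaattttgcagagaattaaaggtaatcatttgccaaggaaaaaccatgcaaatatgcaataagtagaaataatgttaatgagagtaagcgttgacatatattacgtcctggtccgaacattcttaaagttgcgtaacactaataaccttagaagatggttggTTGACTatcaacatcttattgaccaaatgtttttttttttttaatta
The remaining 3 are 121-base windows around summits of TOPLESS (TPL) or LEUNIG (LUG) binding upstream of genes that were called at T48, with the summit base in capitals. They are the expansin gene *EXPA15* (LUG in WT, summit 668 bp upstream, chr2:919279-919399, reverse strand), the wax gene *CER1* (LUG in *morchex*, 217 bp upstream, chr1:418139-418259, forward strand) and the lignin gene *CAD5* (TPL in WT, 132 bp upstream, chr4:16389012-16389132, reverse strand).
EXPA15: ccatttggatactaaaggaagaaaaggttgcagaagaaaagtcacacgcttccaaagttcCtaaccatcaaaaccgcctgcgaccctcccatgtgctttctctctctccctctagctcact
CER1: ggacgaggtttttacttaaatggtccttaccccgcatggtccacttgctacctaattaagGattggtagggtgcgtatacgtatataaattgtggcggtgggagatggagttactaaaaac
CAD5: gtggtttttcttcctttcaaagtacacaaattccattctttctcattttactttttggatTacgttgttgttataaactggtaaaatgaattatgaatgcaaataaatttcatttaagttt
Sequences and annotation are from RefSeq TAIR10.1, whose nuclear chromosomes have the coordinates of TAIR10, the build of the deposited peaks.

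To ask how far the genotypes stood apart after recovery, *morchex* T48 was set against WT T48 with edgeR's quasi-likelihood test, and a gene was called at a Benjamini-Hochberg adjusted p under 0.05 (edgeR adjusted p) and a fold change over 2. Of 18827 genes tested, 534 (2.84%) were higher and 613 (3.26%) lower in *morchex*. These 2 shares are the background for every list and family count below. At T0 the same test called 47 higher (0.25%) and 7 lower (0.0372%). The median log2 difference over all genes tested was 0.02 at T48 and -0.01 at T0. In TMM-normalised CPM, the *morchex* and WT libraries did not overlap for any of the 534 higher genes and for 604 of the 613 lower ones. Over all genes tested, *morchex* lay wholly above WT for 29.7% and wholly below for 26.2%. A lack of overlap thus adds little to a call, and for genes named by the smallest adjusted p it was a condition of the choice. The changes were moderate, with a median fold of 2.85 among higher and 2.70 among lower genes, and 66 genes were more than 8-fold higher and 18 more than 8-fold lower. The counts moved with single libraries: the higher genes numbered 350 without WT T48 replicate 2, 613 without replicate 1 and 643 without replicate 3. The lower genes numbered 379, 537 and 803 in the same order. Of the 350 higher genes, 326 were shared with the calls above. Without either *morchex* T48 library, which leaves 1 in its group, fewer genes were called in each direction.

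The called genes were divided by whether they were also called at T0. Of the 47 genes already higher at T0, 46 were still higher at T48, with a median log2 difference of 4.94 at T48 and 5.74 at T0. The other 488 higher genes had a median of 1.47 at T48 and -0.01 at T0, and 608 of the 613 lower genes were not called at T0 and had medians of -1.43 and 0.04. A gene not called at T0 need not have been equal then. The T0 log2 difference was within 0.5 for 293 of the 534 higher (54.9%) and 507 of the 613 lower genes (82.7%). Whether the effect of genotype had changed since T0 was itself tested: it was larger at T48 for 241 genes (1.28%) and smaller, that is more negative, for 447 (2.37%), among them 146 of the 534 higher and 350 of the 613 lower genes. Without *morchex* T48 replicate 3 these counts were 83 and 180, without *morchex* T48 replicate 2 the larger ones were 117, without WT T48 replicate 2 both were lower at 152 and 290, and without WT T48 replicate 3 the larger ones were 376. For genes higher at T48 and not called at T0 the WT level itself had a median T48 minus T0 difference of 1.72 and the *morchex* level one of 3.09, and for lower genes not called at T0 these were -0.46 and -1.98. The comparisons share the WT T48 libraries, so these medians are given side by side and were not tested against each other.

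**Figure D1:**
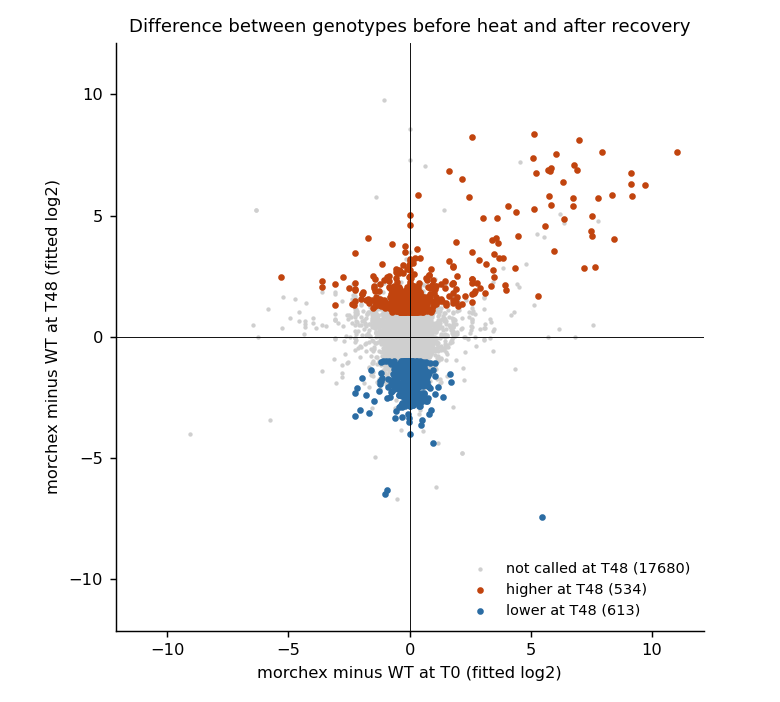
Fitted log2 difference between *morchex* and WT at T0 (x axis) and at T48 (y axis) for each of the 18827 genes tested, with the 534 genes called higher at T48 in red, the 613 called lower in blue and the others in grey. A small group lies far to the upper right, higher at both times, while the bulk of the red and blue points lie near 0 on the x axis; fitted values of genes with no counts in a group are not bounds.

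The mutated genes themselves were read first. *MORC7* (AT4G24970), whose product colocalises with sites of RdDM, was at 8.51, 9.31 and 11.4 TPM in WT T48 and at 1.40 and 1.24 TPM in *morchex* T48, a log2 difference of -3.02 ± 0.32 (SE). *MORC6* (AT1G19100) was at 3.02, 2.92 and 2.93 TPM in WT and 0.59 and 0.43 TPM in *morchex* (-2.67 ± 0.27), and its deficit was larger than at T0 by 1.21 on the log2 scale (edgeR adjusted p = 0.0428). *MORC2* (AT4G36280) was at 4.07, 4.18 and 5.74 TPM against 1.14 and 1.2 TPM (-2.13 ± 0.31), and its close neighbour *MORC1* (AT4G36290) at 7.23, 6.46 and 7.21 TPM against 1.86 and 2.86 TPM (-1.70 ± 0.22). The groups did not overlap for any of these 4 genes, whose levels match the labels, and reads of the similar MORC1 and MORC2 copies could be divided by estimate. *MORC4* (AT5G50780) went the other way, at 4.23, 3.32 and 3.49 TPM in WT and 15.7 and 16.4 TPM in *morchex* (1.99 ± 0.14, edgeR adjusted p = 2.82e-07), as it had at T0 (1.90), so its level does not check the label. *MORC5* (AT5G13130) was too low to test, with 0 counts in all 3 WT libraries and 5 and 1 counts in *morchex*.

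The difference that was already present before heat included loci listed as silenced in WT. Not all of them were silent in these WT libraries, and AT5G35480 was at 47.1 to 53.4 TPM in WT T0. Of the 7 loci listed as silenced in WT, 6 were tested and 5 were higher at T48, with a median log2 difference of 4.71 at T48 and 5.98 at T0, beside 0.02 and -0.01 over all genes. The list was drawn up with results of these data known. *SDC*, whose repeated promoter is printed above, was at 0.80, 0.35 and 0.51 TPM in WT T48 and at 20.2 and 15.9 TPM in *morchex* T48, a log2 difference of 4.87 ± 0.28 (edgeR adjusted p = 2.78e-08). AT4G04293, a pseudogene-class locus on chromosome 4, was at 13.3, 12.1 and 14.1 TPM against 363 and 342 TPM, and its difference of 4.56 ± 0.20 was smaller than at T0 by 1.02, the only higher gene for which that was called. AT5G35480, which encodes an uncharacterised protein, was at 25.1, 39.5 and 35.5 TPM against 357 and 332 TPM (3.16 ± 0.18). All 3 were also among the genes named by the smallest adjusted p, for which the *morchex* libraries had to lie wholly above the WT ones.

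*ABCG38* (AT3G30842), which encodes an ABC transporter, had 1 count over the 3 WT T48 libraries against 191 and 230 in *morchex*, a depth-adjusted ratio of 257 with a 95% counting interval of 46.0 to 10192. AT3G29639 was at 1.72, 1.33 and 2.24 TPM in WT and 86.1 and 84.7 TPM in *morchex* (5.39 ± 0.36). *QQS* (AT3G30720), an orphan gene prone to epigenetic variation, was not called at 12.8, 23.1 and 16.9 TPM in WT and 43.1 and 20.7 TPM in *morchex*, and its libraries overlapped. *FWA* (AT4G25530), a homeobox gene silenced by promoter methylation, had 1 count in WT and 3 in *morchex*, a ratio of 1.83 with an interval of 0.147 to 96.3, so no difference was detectable at this depth. These intervals cover counting error only.

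Outside that list, the same behaviour was seen in *MRD1* (AT1G53480) at 0.36, 0.31 and 0.28 TPM in WT T48 and 30.3 and 34.3 TPM in *morchex* T48, a log2 difference of 6.87 ± 0.35 (5.70 at T0). AT1G36680 and AT1G25430, of the pseudogene class, were named by the same rule. AT1G36680 had 3 counts in WT and 616 in *morchex* (ratio 126, 95% counting interval 42.8 to 610.5), and AT1G25430 was at 0.92, 1.13 and 1.33 TPM against 4.89 and 5.02 TPM (2.00 ± 0.19). Of 280 pseudogene-class loci tested, a class that in this annotation includes transposon-derived genes, 58 (20.7%) were higher and 12 (4.29%) lower, with a median of 0.33. They supplied 31 of the 46 genes higher at both times. Their number among higher genes ranged from 41 to 60 with 1 library left out, and the 12 lower ones fell to 6 without WT T48 replicate 2 and to 4 without either *morchex* library. *MRD1* and *SDC* overlap annotated genes on the other strand by over 1000 bp, and the counting is not stated to use strand. The 23 genes of the DNA methylation and RdDM machinery held no called member in either direction (median 0.09), though 1 was higher without WT T48 replicate 2 or replicate 3 and 2 without *morchex* T48 replicate 3.

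The heat shock genes, which encode the chaperones and factors that protect proteins at high temperature, showed no call between the genotypes after recovery. None of the 26 genes tested was called, none passed the adjusted p of the edgeR test at any fold, and their median log2 difference was 0.11. *HSP101* (AT1G74310), a disaggregating chaperone needed for acquired heat tolerance, was at 2.29 to 2.83 TPM in WT and 2.89 to 3.23 TPM in *morchex* after peaking at up to 1477 TPM in the heat libraries. *HSFA2* (AT2G26150), the factor that extends heat memory, was at 1.17 to 1.34 TPM against 0.89 to 1.28 TPM. The list's median T48 minus T0 difference was 0.04 in WT and -0.26 in *morchex*. Among 12 genes of the unfolded protein response of the endoplasmic reticulum all 12 had a positive difference (median 0.50), yet none was called.

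*EXT4* (AT1G76930, chr1:28895301-28897120), which encodes an extensin, a hydroxyproline-rich glycoprotein that is cross-linked into walls, was at 29.8, 39.3 and 29.4 TPM in WT T48 and at 416 and 551 TPM in *morchex* T48, while all T0 libraries of both genotypes were at 0.34 to 0.83 TPM. The log2 difference was 3.73 ± 0.20 at T48 (edgeR adjusted p = 2.1e-08) and -0.20 at T0. *EXT3* (AT1G21310), an extensin needed for the cell plate in embryos, was at 224, 114 and 214 TPM in WT and 1074 and 1596 TPM in *morchex* (2.72 ± 0.35). Recovered WT itself stood above its T0 level by 5.45 for EXT4 and 5.69 for EXT3 on the log2 scale, and both stood higher again in *morchex*. EXT3 and 12 other genes (EARLI1, AT4G12490, LTP2, PAL4, PAL1, PRX52, PA2, WRKY8, ANAC087, IOS1, RPP1 and SAH7) were named after their values were seen. So was the flavonol regulator MYB111, given below by its log2 difference alone.

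**Figure D2:**
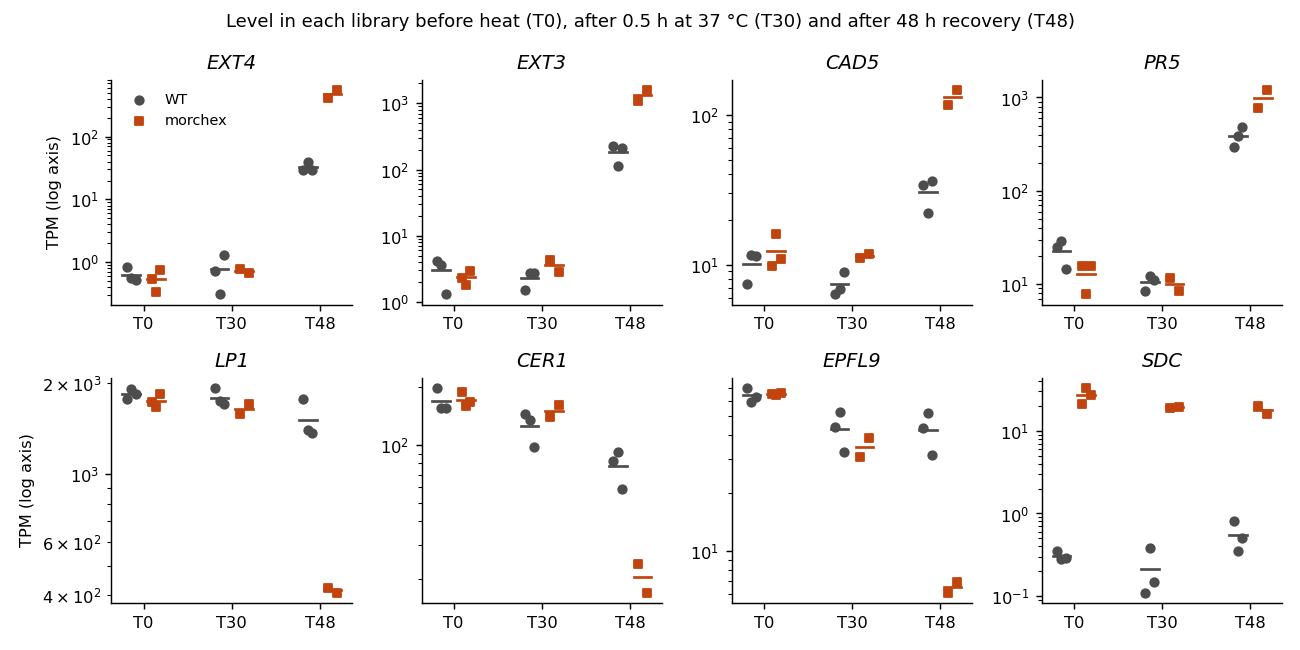
TPM in each library (log axes, scaled per gene) of 8 genes at T0, T30 and T48, with WT as grey circles, *morchex* as red squares and the group mean as a bar. EXT4, EXT3, CAD5 and PR5 were called higher in *morchex* at T48 and not at T0, where the fitted PR5 difference was negative. LP1, CER1 and EPFL9 were called lower in *morchex* at T48 and not at T0, and SDC was higher at all 3 times.

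The called genes of monolignol synthesis, the pathway to the building blocks of lignin, were higher. On a list of 14 added after values had been seen, 7 were called higher (50%, beside 2.84% of all genes), 0 lower and 7 were not called, with a median of 1.01 at T48 and 0.03 at T0. The pathway opens with phenylalanine ammonia-lyase, for which *PAL1* (AT2G37040) was at 48.8, 29.2 and 42.3 TPM in WT and 107 and 108 TPM in *morchex* (1.29 ± 0.40) and *PAL4* (AT3G10340) at 0.41, 0.13 and 0.60 TPM against 3.29 and 3.42 TPM (2.97 ± 0.44). Cinnamate 4-hydroxylase, *C4H* (AT2G30490), the next step, was at 69.3, 52.2 and 56.3 TPM against 141 and 151 TPM (1.16 ± 0.14, edgeR adjusted p = 7.09e-05). The groups were apart in each of these genes, but the PAL1 call was lost in 7 of the 14 alternative fits, among them the replicate block and the fits without WT T48 replicate 2 or 3 or either *morchex* library. Further along, the methyltransferase gene *OMT1* (AT5G54160) was at 137, 98.5 and 125 TPM against 317 and 358 TPM (1.35 ± 0.14). Ferulate 5-hydroxylase, *FAH1* (AT4G36220), was at 51.9, 53.5 and 54.2 TPM against 112 and 127 TPM (1.03 ± 0.20), a call that was lost without *morchex* T48 replicate 3, with upper-quartile factors and after removal of the length or GC trend. The last step, cinnamyl alcohol dehydrogenase *CAD5* (AT4G34230, chr4:16386631-16388940), was at 33.9, 22.0 and 36.2 TPM against 117 and 147 TPM (1.96 ± 0.22, edgeR adjusted p = 4.81e-05), and the effect was larger than at T0 by 1.70. Without *morchex* T48 replicate 3 the list held 4 calls.

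The 3 cellulose synthase genes of the secondary wall, CESA4, CESA7 and CESA8, were not called (log2 differences of 0.44, 0.67 and 0.71). The list of xylem and secondary wall genes held 2 higher calls of 11 (18.2%, beside 2.84% of all genes). Both were monolignol enzymes (CAD5 and FAH1), and fewer were called without *morchex* T48 replicate 3. The summed level of the list was 371 to 426 TPM in WT T48 and 676 to 800 TPM in *morchex* T48. Peroxidases, some of which polymerise monolignols, had 12 higher and 2 lower genes of 50 tested, and the higher ones fell to 7 without *morchex* T48 replicate 2 and to 6 without replicate 3, the lower ones moving to 4 and 1. The peroxidase shares were 24% higher and 4% lower, beside 2.84% and 3.26% of all genes, so the lower share was near that of all genes. *PRX52* (AT5G05340), a peroxidase of lignifying walls, was at 17.3, 14.1 and 31.1 TPM in WT and 75.01 and 81.6 TPM in *morchex* (1.77 ± 0.26), and *PA2* (AT5G06720), another peroxidase gene, at 0.61, 1.03 and 1.19 TPM against 4.14 and 8.87 TPM (2.62 ± 0.44).

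Expansins, which loosen walls as cells enlarge, moved in both directions. Of the 8 tested on the list, 1 was higher and 3 were lower, with a median of -0.92. Over all 19 tested genes of the expansin family, 9 below and 10 above 0, the median was 0.02 and the calls were the same in number. They were 1 higher (5.26%, beside 2.84% of all genes) and 3 lower (15.8%, beside 3.26%). *EXPA3* (AT2G37640) was at 14.4, 17.9 and 13.4 TPM in WT and 4.80 and 6.00 TPM in *morchex* (-1.64 ± 0.21), *EXPA10* (AT1G26770) at 91.5, 47.5 and 56.4 TPM against 17.6 and 21.6 TPM (-1.88 ± 0.31), and *EXPA15* (AT2G03090) at 2.90, 3.41 and 1.81 TPM against 0.94 and 1.13 TPM (-1.51 ± 0.30). *EXPA4* (AT2G39700) was the higher one, at 17.8, 23.1 and 18.0 TPM against 50.9 and 63.1 TPM (1.39 ± 0.17). Each of the 4 was apart between the groups, and the log2 differences at T0 lay between -0.02 and 0.39. Of the family, 2 were higher without WT T48 replicate 3, and 1 was lower with limma.

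The called cutin and wax genes, which build the plant surface, were lower. They made up 30.8% of those tested, beside 3.26% of all genes. Of 13 tested, 0 were higher, 4 lower and 9 not called (median -0.99 at T48 and 0.04 at T0), and the lower ones numbered 2 without *morchex* T48 replicate 2 or with limma and 7 without WT T48 replicate 3, with upper-quartile factors, with DESeq2 or in the fit of the 2 groups alone. *CER1* (AT1G02205, chr1:418416-422579), which forms the long alkanes of stem and leaf wax, was at 82.7, 92.1 and 58.6 TPM in WT and 23.8 and 16.9 TPM in *morchex*, a log2 difference of -2.08 ± 0.24 (edgeR adjusted p = 8.34e-05) that was 0.00 at T0. *CER2* (AT4G24510), needed to elongate wax precursors, was at 16.4, 13.5 and 9.26 TPM against 5.06 and 5.91 TPM (-1.39 ± 0.22). *LACS2* (AT1G49430), an acyl-CoA synthetase of cutin synthesis, was at 6.70, 8.14 and 5.01 TPM against 3.09 and 3.99 TPM (-1.04 ± 0.19), and *MYB106* (AT3G01140), a regulator of cuticle and epidermal cell shape, at 1.39, 1.40 and 0.74 TPM against 0.37 and 0.26 TPM (-2.04 ± 0.69). The last 2 calls were lost in 5 and 8 of the 14 alternative fits. *CER6* (AT1G68530), which acts early in wax elongation, was at 84.5 to 116 TPM in WT and 101 to 111 TPM in *morchex* and was not called. Of 10 epidermis genes on an added list, 0 were called (median -0.20), and 1 was lower without WT T48 replicate 1.

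The lipid transfer protein family, small secreted proteins of which several load surface lipids, split: 10 of 40 tested were higher (25%, beside 2.84% of all genes) and 13 lower (32.5%, beside 3.26%). *LP1* (AT2G38540, chr2:16130290-16131240), a surface protein of epidermal cells, was at 1765, 1395 and 1368 TPM in WT T48 and 423 and 407 TPM in *morchex* T48, where all T0 libraries were at 1670 to 1904 TPM, and its log2 difference was -2.02 ± 0.12 (edgeR adjusted p = 5.72e-08). Its neighbour and close copy *LTP2* (AT2G38530) was at 22.3, 13.6 and 24.4 TPM against 4.63 and 2.59 TPM (-2.63 ± 0.34), and AT1G55260 at 37.0, 45.2 and 28.3 TPM against 5.65 and 7.43 TPM (-2.64 ± 0.22). On the other side *EARLI1* (AT4G12480), a cold- and defence-induced family member, was at 27.1, 70.2 and 88.4 TPM against 430 and 677 TPM (3.00 ± 0.42) and its neighbour AT4G12490 at 53.5, 112 and 103 TPM against 675 and 1248 TPM (3.27 ± 0.28). Reads of these neighbouring copies could be divided between them by estimate. Without *morchex* T48 replicate 3 the family counts were 4 higher and 8 lower.

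Other lower genes named by the smallest adjusted p were not called at T0 either. AT3G61920 was at 14.9, 15.2 and 13.7 TPM in WT and 1.54 and 1.24 TPM in *morchex* (-3.53 ± 0.21, edgeR adjusted p = 5.27e-08), against 26.5 to 33.6 TPM in all T0 libraries. AT5G13140, of the pollen Ole e 1 and extensin family, was at 62.0, 56.0 and 39.6 TPM against 7.47 and 3.84 TPM (-3.37 ± 0.27). Its annotated span overlaps that of *MORC5*, which is disrupted in *morchex*, by 84 bp on opposite strands, and its T0 difference was -0.04. The Ole e 1 family was added after values had been seen. Of its 11 genes tested 5 were lower (45.5%, beside 3.26% of all genes) and 0 higher (median -1.38). Among the lower ones was *SAH7* (AT4G08685) at 56.1, 57.2 and 43.5 TPM against 24.7 and 20.14 TPM (-1.38 ± 0.15). *EPFL9* (AT4G12970, chr4:7585869-7587099), the STOMAGEN peptide that promotes stomata, was at 43.2, 51.9 and 31.4 TPM against 6.11 and 6.92 TPM (-2.87 ± 0.26) and was the only called gene of 9 tested on an added stomatal list, which held 2 without WT T48 replicate 1 or replicate 3. The GDSL lipases, secreted esterases of which some act in cutin, were also added after values had been seen. They had 1 higher (2.13%, beside 2.84% of all genes) and 9 lower (19.1%, beside 3.26%) of 47. The higher ones were 3 without WT T48 replicate 1 and 2 without replicate 3.

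Genes for lipids and signals inside the cell followed. *FAP3* (AT1G53520), a plastid fatty-acid-binding protein, was at 15.8, 19.1 and 13.4 TPM against 3.00 and 2.85 TPM (-2.61 ± 0.18). *FAD8* (AT5G05580), a plastid desaturase whose activity is greater in the cold, was at 134, 152 and 123 TPM against 55.3 and 52.0 TPM (-1.49 ± 0.12). The peptide hormone gene *RALFL34* (AT5G67070) was at 78.0, 95.1 and 71.6 TPM against 31.0 and 30.3 TPM (-1.57 ± 0.13). In each of them the *morchex* libraries agreed closely, and lying under the lowest WT library was a condition of their choice. AT5G01015, of unknown function, was at 115, 124 and 80.1 TPM against 17.3 and 16.7 TPM (-2.85 ± 0.22), and AT2G21385 at 108, 120 and 106 TPM against 60.2 and 55.0 TPM (-1.11 ± 0.10). AT2G21385 was at -0.51 at T30 (edgeR adjusted p = 0.0206).

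The flavonoid pathway, which shares its first steps with lignin, had calls in both directions. Of 17 tested, 2 were higher (PAL1 and C4H, the shared steps) and 6 lower, with a median of -1.07 at T48 and 0.06 at T0. The shares were 11.8% and 35.3%, beside 2.84% and 3.26% of all genes. *4CL3* (AT1G65060), the 4-coumarate ligase of the flavonoid branch, was at 8.78, 8.89 and 7.01 TPM in WT and 2.13 and 0.97 TPM in *morchex* (-2.55 ± 0.30, edgeR adjusted p = 6.18e-05). Chalcone synthase, *CHS* (AT5G13930), the entry enzyme, was at 49.8, 84.5 and 54.7 TPM against 25.6 and 10.5 TPM (-1.95 ± 0.53), a call lost without WT T48 replicate 2 or *morchex* T48 replicate 3 and in the fit of the 2 groups alone. *F3H* (AT3G51240) was at 11.8, 13.4 and 12.5 TPM against 5.20 and 2.96 TPM (-1.77 ± 0.27), and *FLS1* (AT5G08640), which makes flavonols, at 12.9, 17.4 and 9.70 TPM against 4.91 and 2.46 TPM (-2.0 ± 0.33). The groups were apart in all of them, although the 2 *morchex* libraries differed from each other by over 1.5 times. Of the regulators, *PAP1* (AT1G56650), which switches on anthocyanin synthesis, was at 3.68, 3.41 and 6.11 TPM against 0.90 and 0.93 TPM (-2.41 ± 0.72), a call lost in 6 of the 14 alternative fits. The last lower member, the flavonol regulator *MYB111*, was named after its values were seen, at -2.36. The 6 lower genes became 3 without WT T48 replicate 2 or *morchex* T48 replicate 3, and the 2 higher became 1 without any of 4 libraries, WT T48 replicates 2 and 3 and both *morchex* ones.

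Called genes of cell division were lower. All 18 mitosis genes tested had a negative difference and 6 were called lower (33.3%, beside 3.26% of all genes), 0 higher (median -1.06 at T48, 0.15 at T0). *CDC20.1* (AT4G33270), an activator of the anaphase-promoting complex, was at 3.06, 2.95 and 2.09 TPM in WT and 1.15 and 1.19 TPM in *morchex* (-1.34 ± 0.23). *KNOLLE* (AT1G08560), the syntaxin of the cell plate, was at 3.37, 5.41 and 3.07 TPM against 2.05 and 1.44 TPM (-1.31 ± 0.33). The cyclin genes *CYCA1;1*, *CYCB1;2*, *CYCB1;4* and *CYCB2;4*, which drive entry into and passage through mitosis, had log2 differences of -1.48, -1.54, -1.26 and -2.04, all at levels under 3 TPM. Of the 14 alternative fits, CYCA1;1 and CYCB1;2 lost their calls in 5 each, CYCB1;4 in 6 and CYCB2;4 in 10, and KNOLLE in 3. The 6 calls became 2 without WT T48 replicate 2 or *morchex* T48 replicate 3, 3 without *morchex* T48 replicate 2, and 0 with limma on log2(TPM + 1). DNA replication genes were not called in either direction (0 of 13, median -0.21).

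Among 22 auxin response genes 1 was higher and 6 lower (median -0.91 at T48, 0.11 at T0), and the lower ones were 2 and the higher 0 without *morchex* T48 replicate 3, with 2 higher without WT T48 replicate 1. The shares were 4.55% higher and 27.3% lower, beside 2.84% and 3.26% of all genes. The lower ones include AUX/IAA genes, auxin-induced repressors of the auxin response. *IAA14* (AT4G14550) was at 3.16, 4.88 and 3.42 TPM in WT and 1.29 and 1.42 TPM in *morchex* (-1.63 ± 0.26), *IAA3* (AT1G04240) at 30.1, 37.3 and 23.9 TPM against 14.1 and 12.1 TPM (-1.37 ± 0.23) and *IAA29* (AT4G32280) at 14.1, 16.4 and 9.04 TPM against 6.16 and 4.60 TPM (-1.44 ± 0.31, not called without *morchex* T48 replicate 3). IAA1 and IAA5 were at -1.05 and -1.47 and lost their calls in 6 and 3 of the 14 alternative fits. *GH3.6* (AT5G54510), which conjugates auxin to amino acids, was higher at 2.07, 2.55 and 2.41 TPM against 5.73 and 9.80 TPM (1.58 ± 0.40). The SAUR family, small auxin-induced growth genes, had 1 higher (2.27%) and 11 lower (25%) of 44 (median -0.67). The 11 became 5, 4, 3 and 4 without WT T48 replicate 1, WT T48 replicate 2, *morchex* T48 replicate 2 and *morchex* T48 replicate 3, and 2 once the length trend was removed, and the 1 became 2 without *morchex* T48 replicate 3.

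**Figure D3:**
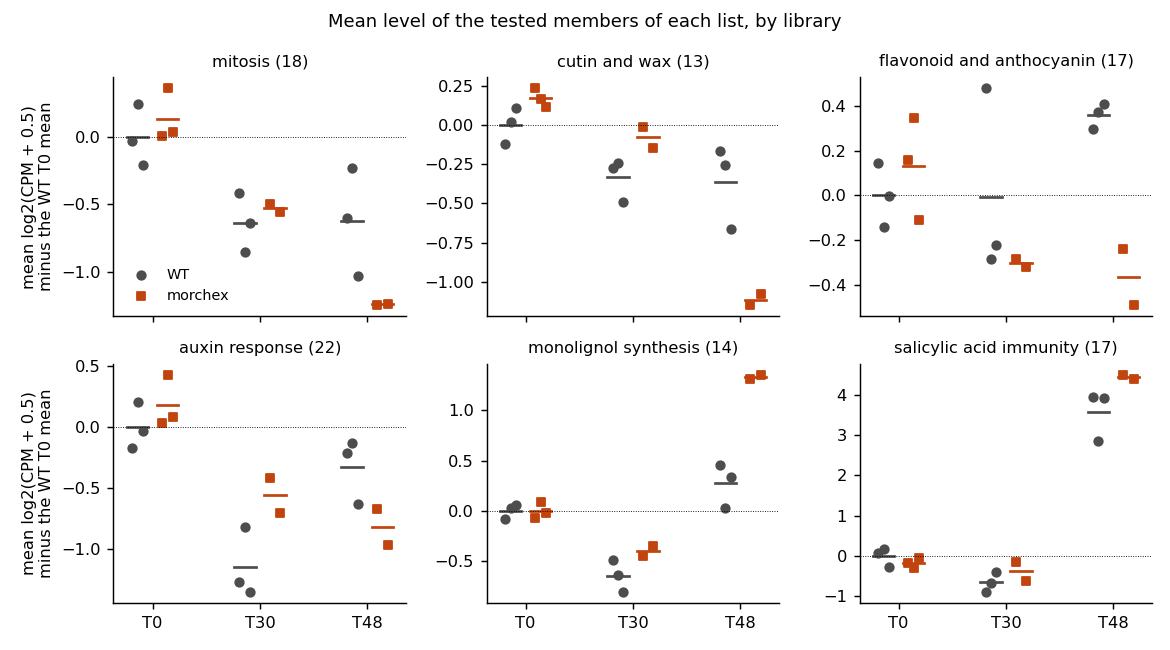
Mean level of the tested members of 6 lists in each library, as mean log2(CPM + 0.5) minus its mean in WT T0, with WT as grey circles, *morchex* as red squares and group means as bars. At T48 the *morchex* libraries lay below the WT ones for mitosis, cutin and wax, flavonoid and auxin response genes, and above them for monolignol synthesis and salicylic acid immunity, where WT T48 itself was already at 2.84 to 3.95.

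The called iron and cold genes were lower too. Of 7 iron homeostasis genes tested 2 were called, both lower and both ferritins, the iron-storage proteins of plastids. *FER3* (AT3G56090) was at 315, 434 and 259 TPM in WT and 122 and 105 TPM in *morchex* (-1.72 ± 0.25), and *FER4* (AT2G40300) at 86.1, 101 and 64.3 TPM against 39.6 and 33.0 TPM (-1.36 ± 0.24). Among 19 genes of abscisic acid, cold and drought response 0 were higher and 3 lower (median -0.20). *COR15A* (AT2G42540), which protects chloroplast membranes during freezing, was at 894, 1260 and 1098 TPM against 416 and 353 TPM (-1.62 ± 0.27). WT had raised it by 2.25 on the log2 scale from T0, and *morchex* stood 0.21 above its own T0 level. *RD22* (AT5G25610) was at 259, 142 and 189 TPM against 87.3 and 89.6 TPM (-1.29 ± 0.21) and *KIN2* (AT5G15970) at 2866, 3562 and 3623 TPM against 1769 and 1915 TPM (-1.04 ± 0.23), a call lost in 5 of the 14 alternative fits. The flowering regulators *SPL9* (AT2G42200) and *AGL24* (AT4G24540) were lower at -1.36 ± 0.30 and -1.11 ± 0.22, 2 of 15 tested. SPL9 lost its call without *morchex* T48 replicate 3 and with limma, and AGL24 with limma and with the length or GC trend removed, so with limma 0 were lower.

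Defence genes stood high in recovered WT and, for some, higher in *morchex*. All 17 salicylic acid immunity genes had a positive difference (median 0.63 at T48, -0.18 at T0). Yet only 2 were called higher (11.8%, beside 2.84% of all genes), and 0 lower. The same list had a median T48 minus T0 difference of 3.88 in WT and 4.67 in *morchex*. *PR5*, whose promoter is printed above, was at 295, 391 and 477 TPM in WT T48 and 773 and 1204 TPM in *morchex* T48 (1.2 ± 0.32), a call lost without WT T48 replicate 1, WT T48 replicate 2 or *morchex* T48 replicate 3, and its effect was larger than at T0 by 2.03 (edgeR adjusted p = 0.0179). *SAG101* (AT5G14930), a partner of the immune hub EDS1, was at 12.5, 8.76 and 14.1 TPM against 26.9 and 26.5 TPM (1.01 ± 0.22), a call lost in 7 of the 14 alternative fits, among them DESeq2 and the fits without WT T48 replicate 2 or *morchex* T48 replicate 3. For PR5 the change since T0 exceeded the T48 difference, so its T0 difference was negative and supplied part of that change. No gene of this list was called at T0. PR1, the usual reporter of salicylic acid, was at 180 to 557 TPM against 1127 to 2657 TPM and missed the threshold (2.16 ± 0.75, edgeR adjusted p = 0.0578). The list held 0 calls without WT T48 replicate 2 or *morchex* T48 replicate 3 and 4 without WT T48 replicate 3.

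Pattern-triggered immunity had 1 higher of 12 (8.33%, beside 2.84% of all genes, median 0.37). It was *FRK1*, at 8.61, 2.75 and 6.16 TPM against 17.9 and 18.7 TPM (1.51 ± 0.29). The FRK1 call was lost in the fit of the 2 groups alone. The receptor-like kinases had 22 higher (9.61%, beside 2.84% of all genes) and 4 lower (1.75%, beside 3.26%) of 229, and the higher ones numbered 13, 11 and 9 without WT T48 replicate 2, *morchex* T48 replicate 2 and *morchex* T48 replicate 3, the lower ones 2 without WT T48 replicate 2 and 8 without WT T48 replicate 3. In the fit of the 2 groups alone 12 were higher, and with upper-quartile factors or the length trend removed 8 were lower. *IOS1* (AT1G51800), a kinase that acts with flagellin perception, was at 4.69, 2.46 and 4.16 TPM against 13.4 and 12.7 TPM (1.66 ± 0.28). Genes whose product name holds NBS-LRR or disease resistance were counted as 1 family. It may include proteins other than intracellular immune receptors. This family had 16 higher (11.9%) and 2 lower (1.49%) of 134 (median 0.50). The higher ones were 7 without WT T48 replicate 2 and fewer without either *morchex* T48 library. With the length trend removed 6 were higher and 0 lower, and without any single WT T48 library 0 or 1 were lower. *RPP1* (AT3G44480), a receptor for downy mildew effectors, was at 13.8, 12.6 and 21.7 TPM against 38.4 and 39.0 TPM (1.14 ± 0.16), a call lost when the length trend was removed.

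Few transcription factors of the WRKY and NAC families, linked to stress and ageing, were called, and those that were stood higher. The ERF factors had 0 higher and 2 lower (3.39%, beside 3.26% of all genes) of 59. WRKY factors had 5 higher (10.4%, beside 2.84% of all genes) and 0 lower of 48, with a median of 0.38 (2, 3 and 2 higher without WT T48 replicate 2, *morchex* T48 replicate 2 and *morchex* T48 replicate 3), and NAC factors 7 higher (11.5%) and 0 lower of 61, with a median of 0.09 (2, 1 and 0 higher without the same libraries). With upper-quartile factors 3 WRKY genes were higher, and with thinned counts 3 NAC genes. *WRKY8* (AT5G46350) was at 5.19, 4.02 and 8.42 TPM in WT and 18.0 and 19.3 TPM in *morchex* (1.52 ± 0.28). *WRKY6* (AT1G62300), a regulator of senescence and phosphate use, was at 9.07, 5.05 and 10.1 TPM against 17.5 and 18.7 TPM (1.02 ± 0.20) and lost its call in 6 of the 14 alternative fits. *ANAC087* (AT5G18270), which promotes developmental cell death, was at 0.29, 0.39 and 0.53 TPM against 1.05 and 3.62 TPM (2.35 ± 0.50), so the 2 *morchex* libraries differed widely, and its call was lost without *morchex* T48 replicate 3. *SAG13* (AT2G29350), a senescence marker, was at 108, 41.8 and 113 TPM against 216 and 290 TPM (1.39 ± 0.35). With WRKY6 it made 2 of 7 senescence genes called higher (28.6%, beside 2.84% of all genes). Fewer were called without *morchex* T48 replicate 3, and 1 without WT T48 replicate 2.

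By adjusted p, the 4 genes with the clearest rise in effect from T0 to T48 are linked to nitrogen, sugar chains, transport and lignin. *GSR 1* (AT5G37600), a cytosolic glutamine synthetase, was at 222, 205 and 264 TPM in WT T48 and 590 and 624 TPM in *morchex* T48 (1.26 ± 0.15), against -0.51 at T0, a difference of 1.77 ± 0.21. *UMAMIT40* (AT5G40240), of a family of amino acid exporters, was at 12.7, 15.7 and 17.5 TPM against 44.5 and 57.1 TPM, with an effect larger by 1.87 ± 0.25. AT2G26600, a glycosyl hydrolase gene, was at 16.1, 14.2 and 21.0 TPM against 39.6 and 39.8 TPM, with an effect larger by 1.40 ± 0.19. These and OMT1 were those 4 genes. The 4 with the smallest adjusted p for a more negative effect were AT3G61920, LP1, FAP3 and AT5G01015. Their effects were more negative than at T0 by 3.5, 1.92, 2.80 and 2.85. The T0 differences from which they moved were -0.03, -0.10, 0.19 and 0.003.

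Several groups showed no call in either direction at T48: 26 jasmonate genes (median -0.10), 20 glucosinolate genes (0.02), 21 circadian clock genes (0.19), 10 ethylene genes (0.30), 10 early wound genes (0.11), 8 genes of light response (-0.16), 11 of sulfur and phosphate deficiency (-0.15), 4 of alternative respiration (0.18) and 8 TOPLESS and LEUNIG corepressor genes (0.35). With 1 library left out, 1 gene was called in the glucosinolate list in each direction (without WT T48 replicate 1), in the respiration list (without WT T48 replicate 1 or 3), in the wound list (without WT T48 replicate 1 higher, without replicate 3 lower) and in the light list (without WT T48 replicate 2 or *morchex* T48 replicate 2). The 23 photosynthesis genes held no call at 2-fold either, with a median of -0.32, and 10 of them passed the adjusted p of the edgeR test as lower. Photosynthesis genes held 1 lower call without *morchex* T48 replicate 2. Of 353 ribosomal protein genes, 13 (3.68%) were called lower, a share near the 3.26% of all genes, and 0 higher, 225 passed the adjusted p as lower, the median was -0.59, and the 13 became 38 without WT T48 replicate 3, 4 without WT T48 replicate 2, 7 without *morchex* T48 replicate 2, 32 with upper-quartile factors, 8 with the replicate block and 2 once the length trend was removed or with limma. In 3 of the fits, without WT T48 replicate 3, with the length trend removed and with limma, 1 was higher.

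Other families of wall and surface proteins had calls in both directions. The extensin and proline-rich family, added after values had been seen, had 3 higher (15%) and 5 lower (25%) of 20, beside 2.84% and 3.26% of all genes. It was drawn by product name and takes in names of the Ole e 1 and extensin family, such as AT5G13140. Its 5 lower genes equal those of the Ole e 1 family in number, so the same genes may be counted in both. The higher ones were 3 also without any single WT T48 library. Arabinogalactan proteins, glycoproteins of wall and membrane and also an added family, had 2 higher (5.26%) and 8 lower (21.1%) of 38. The lower ones were 5 without WT T48 replicate 2, and fewer were called in each direction without *morchex* T48 replicate 2. Pectinesterases and pectin lyases, which alter wall pectin, had 6 in each direction of 80 (7.5% each, beside 2.84% and 3.26% of all genes), with 3 higher without *morchex* T48 replicate 3 and 10 lower without WT T48 replicate 3. Cytochrome P450 genes had 7 higher (5.6%) and 1 lower (0.8%) of 125, with 3, 3 and 4 higher without WT T48 replicate 2, *morchex* T48 replicate 2 and *morchex* T48 replicate 3, and 0 to 2 lower without 1 library. Kinesins, aquaporins, subtilases, histones, F-box proteins, heat shock proteins, glycosyltransferases, glutathione S-transferases, and the ERF, MYB and bHLH factors had 0 to 4 higher and 1 to 5 lower genes each. Their shares were 0 to 14.8% higher and 2.38 to 7.5% lower, beside 2.84% and 3.26% of all genes. In each of these families a count moved by over 1.5 times with 1 library left out.

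**Figure D4:**
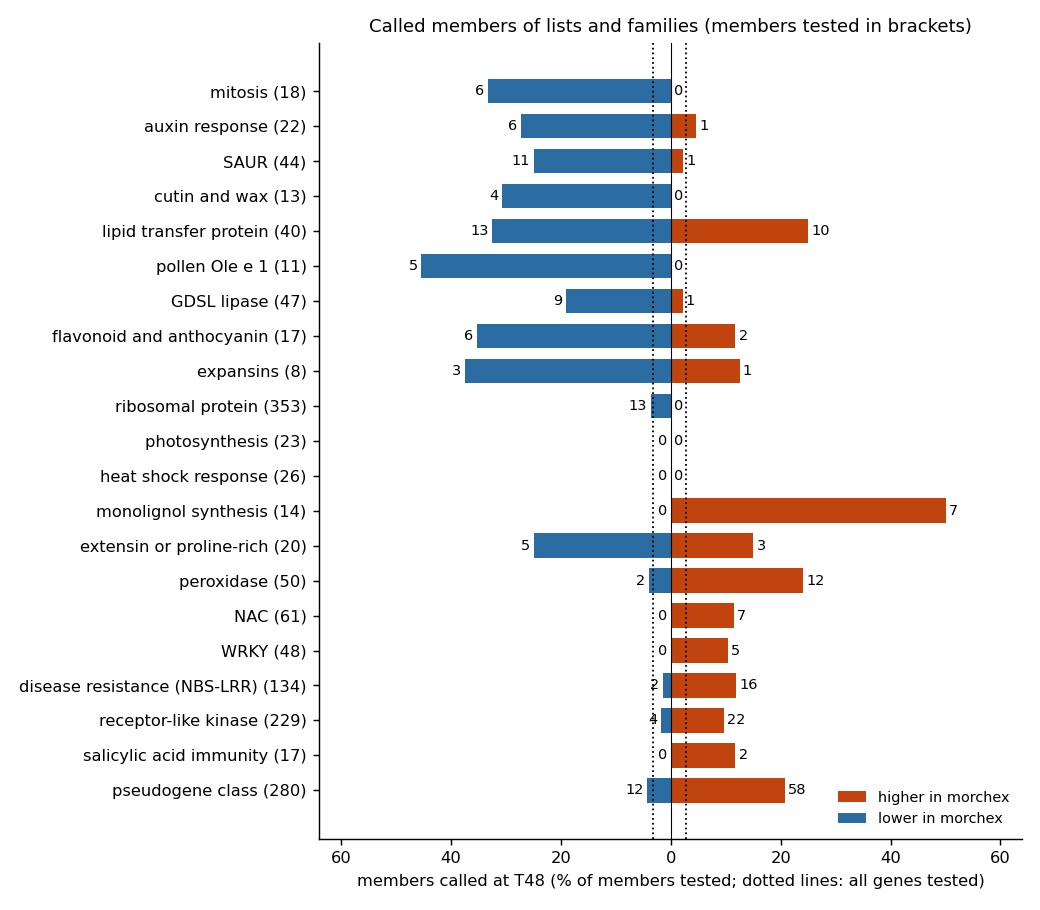
Share of the tested members of 21 lists and families that were called higher (red, to the right) or lower (blue, to the left) in *morchex* at T48, with the number called beside each bar, the number tested in brackets and dotted lines at the shares over all genes tested (2.84% and 3.26%). The monolignol list reached 7 of 14 higher. Mitosis, flavonoid, cutin and Ole e 1 genes had more lower than higher calls, and heat shock and photosynthesis genes had no call. The monolignol, Ole e 1, GDSL and extensin sets were added after values had been seen. The extensin set takes in product names of the Ole e 1 and extensin family.

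Transcript length moved with the difference between genotypes. With the tested genes ordered by length and cut into 5 bins, the median log2 difference at T48 was -0.22, -0.085, 0.00, 0.09 and 0.26 from the shortest to the longest, against -0.09, -0.04, -0.01, 0.01 and 0.07 at T0. The median length was 1745 bp for higher genes, 1134 bp for lower genes and 1527 bp for all tested. With the trend removed, 490 genes were higher and 452 lower, 429 and 419 of them shared with the calls above. The count-weighted mean length was 1758 to 1761 bp in *morchex* T48, 1599 to 1683 bp in WT T48 and 1562 to 1589 bp in the T0 libraries. Whether RNA integrity, library preparation or tissue makeup set these values was not tested.

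**Figure D5:**
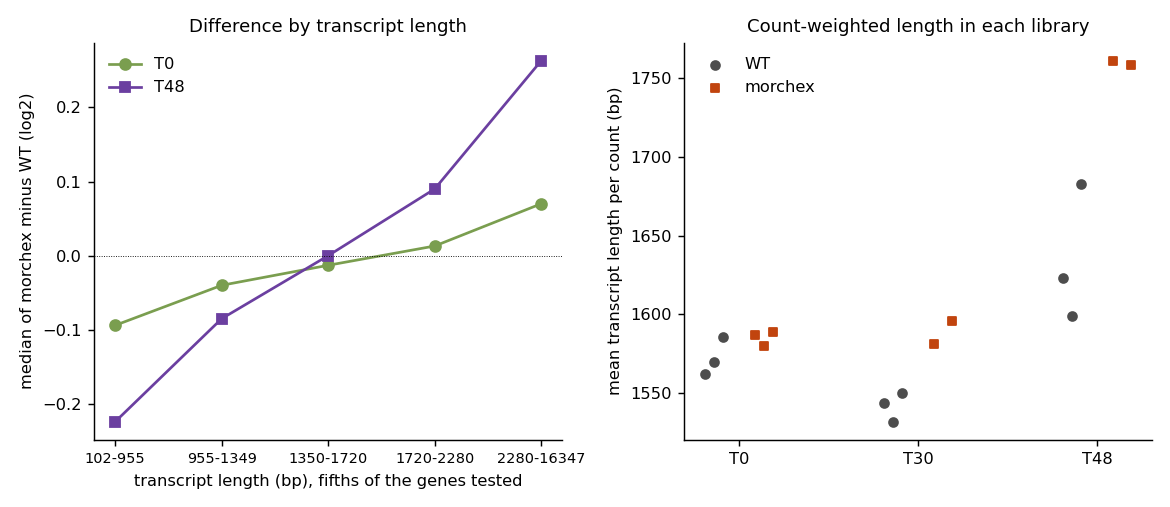
Left, median log2 difference between *morchex* and WT in 5 bins of the tested genes by transcript length, at T0 (circles) and T48 (squares). Right, mean transcript length per count in each library, with WT as grey circles and *morchex* as red squares: the 2 *morchex* T48 libraries sit at 1758 to 1761 bp, above the 3 WT T48 libraries at 1599 to 1683 bp.

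Promoters of the called genes were searched on both strands, from 250 bases before to 50 after the start. TTGACT, the W-box core printed for PR5 and FRK1, was in 34.5% of promoters of higher genes and 37.4% of those higher at T48 but not T0, beside 21.8% of all tested, 17.2% of lower genes and 2 of the 46 genes higher at both times. TGGGCC, an element frequent in growth and ribosomal genes, was in 6.60% of higher, 14.7% of lower and 19.7% of all promoters. CACGTG, the G-box, was in 4.91%, 8.02% and 8.88%, and the heat shock element (3 alternating GAA and TTC blocks) in 1.13%, 0.164% and 0.589%. The W-box core with C, TTGACC, was in 17.5%, 11.3% and 14.4%. The evening element AAAATATCT (2.08%, 2.45% and 3.12%), GCCGCC (1.89%, 1.96% and 2.76%) and AAACCCTAA (1.13%, 3.44% and 3.23%) were the remaining ones searched. These shares are descriptions without a test, and a match is not a bound site.

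TPL and LUG are corepressors that transcription factors recruit to DNA, and the series maps 3xFLAG-tagged versions of both by ChIP-seq in WT and *morchex*, with 1 peak list for each protein and genotype and no heat named, so these peaks come from other plants than the RNA. A TPL summit in WT lay between 1000 bp before and 200 bp after the start of 30.9% of lower, 14.7% of higher and 20.13% of all tested genes. For TPL in *morchex* the shares were 40.1%, 20.8% and 27.3%. For LUG they were 13.7% of lower, 3.02% of higher and 5.09% of all genes in WT, and 22.1%, 6.79% and 10.7% in *morchex*. With the TPL summits of WT moved by 20000 bp either way, the share of all genes was 12.2 to 12.4%. Among the printed windows, the summit in EXPA15 had a -log10 q of 8.66, that of CER1 6.07 and that of CAD5 8.51, so both lower genes and a higher gene had such a summit. The lists have no replicates and no test was made on them. Of 424 genes that the study lists near MORC7 sites of open chromatin without Pol V, in a copy that may lack entries, 340 were tested. Of these, 7 (2.06%, beside 2.84% of all genes) were higher and 24 (7.06%, beside 3.26%) lower, with a median of -0.10. With 1 library left out the higher ones ranged from 2 to 10 and the lower ones from 16 to 32, and with limma 12 were lower.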

How the data were processed

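RNA was read from tissue of WT and *morchex* at T0, T30 and T48 that the labels call floral, which its markers did not bear out. Per the methods, TruSeq Stranded mRNA libraries were aligned to TAIR10 with Bowtie2 and quantified by the authors with RSEM. The deposited tables give an expected count, RSEM's unnormalised estimate, and a TPM, scaled by the authors to transcript length and library, for each of 33602 genes. Whether strand was used in counting is not given in the sources used here. TPL and LUG peaks were called by the authors with MACS2 2.1.1 after Bowtie2 2.1.0, and each deposited summit carries a -log10 q, with 1 list for each group. A *morchex* T48 library with replicate number 1 was not analysed here.

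Expected counts were rounded and fitted with edgeR 4.0.16 (R 4.3.3; filterByExpr by group, TMM, robust quasi-likelihood) over 16 libraries in 6 groups that shared 1 estimate of the spread. A gene was called at a Benjamini-Hochberg adjusted p under 0.05 over all 18827 genes tested and a fold over 2. Alternatives were DESeq2 1.42.0, limma 3.58.1 on log2(TPM + 1), no filter, upper-quartile factors, a replicate block, the 2 groups alone (with T0 added for the change since T0), counts thinned to 8606364 a library, removal of the trend with transcript length or GC content, and each T48 library left out. Figures were drawn with Python 3.11.15 and matplotlib 3.10.9. The fit was tested on simulated data.

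The members and lists were chosen with earlier results of these data known. Named genes are the 6 MORC genes, 7 loci listed as silenced, and up to 6 called members of each list by adjusted p. They also include the 10 higher and 10 lower called genes with the smallest adjusted p whose libraries do not overlap. The 4 genes at each end of the change since T0 are named too. Genes named without a call were picked for their known roles. There were 35 lists and 22 families. Added after values had been seen were 3 lists (monolignol synthesis, epidermis, stomatal lineage) and 7 families (kinesin, arabinogalactan protein, GDSL lipase, extensin, Ole e 1, aquaporin, subtilase). A list of genes near MORC7 sites, taken from the study's supplement, is given by counts alone. Of 84 named genes, 23 overlap another annotated gene.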

Additional observations from a re-analysis of the deposited data

Results flagged for a closer look

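For 50 of the named genes the *morchex* difference at T48 was not the one at T0: the difference between both effects, tested in the same edgeR fit, passed an adjusted p of 0.05 with a change over 2-fold. The values are T48 minus T0 effects on the log2 scale. The effect was larger at T48 for 16 genes, EXT4 (3.93), C4H (1.11), PR5 (2.03), WRKY6 (1.04), CAD5 (1.70), GSR 1 (1.77), UMAMIT40 (1.87), AT2G26600 (1.40), OMT1 (1.34), EXT3 (3.11), EARLI1 (4.15), AT4G12490 (2.83), PAL4 (3.25), WRKY8 (1.75), ANAC087 (3.40) and RPP1 (1.32). It was smaller, that is more negative, for 34 genes. Those of surface lipids, the cell wall and secreted proteins were LP1 (-1.92), AT1G55260 (-2.52), LTP2 (-2.72), CER1 (-2.07), CER2 (-1.92), LACS2 (-1.05), EXPA3 (-1.75), EXPA10 (-1.93), EXPA15 (-1.49), AT5G13140 (-3.33) and SAH7 (-1.41). Flavonoid genes were 4CL3 (-3.05), F3H (-1.24), FLS1 (-2.51) and CHS (-2.64). Auxin, cell cycle and flowering genes were IAA14 (-1.85), IAA3 (-1.53), IAA29 (-1.85), CDC20.1 (-1.56), CYCB1;4 (-1.83) and SPL9 (-1.49). Cold, drought and iron genes were RD22 (-1.23), COR15A (-2.04), KIN2 (-1.15), FER3 (-1.44) and FER4 (-1.09). The others were MORC6 (-1.21), AT4G04293 (-1.02), AT3G61920 (-3.50), FAP3 (-2.80), AT5G01015 (-2.85), FAD8 (-1.49), RALFL34 (-1.63) and EPFL9 (-2.87). AT4G04293 was higher at both times, and MORC6 lower at both times. Both effects are measured against different WT libraries, and the T48 plants were also sampled later than those of T0.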

How the results depend on the processing

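The main counts were 534 higher, 613 lower, 241 with a larger and 447 with a smaller effect at T48 than at T0. With no fold-change threshold they were 2360, 2359, 727 and 991. Without adjustment of the p-value the larger and smaller effects numbered 549 and 801. With limma on log2(TPM + 1) there were 604 higher, 248 lower, 544 larger and 271 smaller, and 70.9% of its T48 calls were higher against 46.6% in the edgeR fit; its median difference over all genes was 0.121 above that of the edgeR fit. Leaving out 1 T48 library gave 298 to 643 higher, 367 to 803 lower, 83 to 376 larger and 180 to 641 smaller genes. Upper-quartile factors, no filter on low counts, the groups alone, thinned counts, removal of the length or GC trend and DESeq2 kept each of the 4 counts within 1.5 times. Of 81 named genes called at T48, 53 were called in all 14 of these fits and 0 turned direction. Calls lost ranged from 1 with DESeq2 to 15 with limma and 19 without *morchex* T48 replicate 3. Upper-quartile factors gave 37.1% higher among T48 calls. Whether samples that share a replicate number deviate together cannot be read at T48 (r = -0.164 and -0.025), because the deviations of 2 *morchex* libraries mirror each other. The numbers were not taken as pairs. With the replicate number as a block the counts were 572 higher, 550 lower, 268 larger and 444 smaller. With 2 *morchex* libraries, leaving 1 out assumes that the lone library varies like the other groups.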
